A study of Mus musculus with 18 samples.

Results

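The suppressors of cytokine signalling Socs1, Socs2, Socs3 and Cish and the dual-specificity MAP kinase phosphatases Dusp1, Dusp2, Dusp4, Dusp5, Dusp6 and Dusp16 were followed in mouse bone marrow-derived macrophages (BMDMs). The genes were chosen by symbol, and all 10 were found among the 25926 genes of the expression table. BMDMs of C57BL/6 mice were grown for 7 days in 50 ng/mL M-CSF and placed above a Transwell membrane (0.4 µm pores), over renal tubular epithelial cells (TECs) of wild-type mice. In the NC group the BMDMs received PBS above TECs without crystals. By their treatment label, BMDMs of the COM group likewise received PBS, above TECs that had been exposed to calcium oxalate monohydrate (COM) crystals at 100 µg/mL for 24 h. In the COM+Met group the BMDMs received Met at 5 mM for 24 h above such crystal-exposed TECs. The protocol text common to all libraries can also be read as giving Met to the COM group, and the treatment label was followed here. Met is not spelled out in the labels, there was no Met group without crystals, and each group had 6 RNA-seq libraries. Whether these were separate cultures or mice is not given, so p-values measure the spread between libraries, which may be technical.

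SOCS proteins and the phosphatases of the DUSP family act as brakes on signals that reach a macrophage through its cytokine and pattern-recognition receptors. Cytokine receptors work through JAK kinases and STAT transcription factors, and STATs switch on SOCS genes, whose products bind receptors or JAKs and mark them for degradation. The DUSP proteins remove phosphate from the MAP kinases ERK, JNK and p38, and several are themselves induced by MAP kinase signalling. Transcript levels of such genes are therefore often read as a record of recent signalling as well as a brake on it.

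The letters before the start sites of Socs3, Socs1 and Dusp1 are shown because these genes were higher in COM than in NC and their promoters held motifs read by factors of these pathways. RefSeq promoters on GRCm38.p6 were matched for 8 of the 10 genes, all but Socs2 and Dusp4. Each sequence gives the 250 bases before the start site on the coding strand. Capitals mark in Socs3 the gamma-activated sequence (GAS) motif of STAT factors, in Socs1 a pair of overlapping core motifs of the interferon-stimulated response element (ISRE), and in Dusp1 the full cyclic AMP response element (CRE).
Socs3, chr11:117969367-117969616, minus strand: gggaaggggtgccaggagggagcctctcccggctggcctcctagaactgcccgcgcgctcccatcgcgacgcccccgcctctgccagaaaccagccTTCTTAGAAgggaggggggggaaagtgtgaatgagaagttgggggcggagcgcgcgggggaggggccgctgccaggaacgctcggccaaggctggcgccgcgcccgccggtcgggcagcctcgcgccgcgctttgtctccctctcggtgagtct
Socs1, chr16:10785537-10785786, minus strand: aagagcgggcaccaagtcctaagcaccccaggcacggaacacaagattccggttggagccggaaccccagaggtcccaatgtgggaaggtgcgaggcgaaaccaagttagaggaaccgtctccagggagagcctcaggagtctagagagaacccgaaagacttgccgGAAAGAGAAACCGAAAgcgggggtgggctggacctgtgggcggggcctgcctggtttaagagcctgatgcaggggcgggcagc
Dusp1, chr17:26508473-26508722, minus strand: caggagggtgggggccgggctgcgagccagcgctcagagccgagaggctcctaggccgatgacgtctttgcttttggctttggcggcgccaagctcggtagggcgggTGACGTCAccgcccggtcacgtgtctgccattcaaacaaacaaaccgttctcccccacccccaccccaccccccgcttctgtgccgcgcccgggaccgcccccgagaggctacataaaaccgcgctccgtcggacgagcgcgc
The Socs3 GAS motif, TTCTTAGAA, lay at positions -154 to -146 from the start. The Socs1 matches, GAAAGAGAAA and GAAACCGAAA, lay at -83 to -74 and -77 to -68, and the Dusp1 CRE, TGACGTCA, at -143 to -136.

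All motifs were searched on both strands in the 250 upstream bases of 32851 promoters. A GAS motif (TTCNNNGAA) was present in 7.02% of them and in 1 of the 8 matched genes, an ISRE core (GAAA, any 2 bases and GAAA, a search added after the Socs1 letters had been seen) in 2.98% and 1, and the full CRE in 1.55% and 1. The shorter CRE core TGACG, which the full motif contains, was present in 17.8% of all promoters and in 4 of the 8, those of Dusp1, Dusp5, Dusp16 and Cish. A kappa B motif (GGG, any 2 bases and TTTCC) was present in 1.41% and in the Dusp5 promoter as GGAAATACCC, read on the opposite strand. The AP-1 motif TGANTCA (6.75% of all promoters) and the TATA box TATAAA (12.4%) had no match in the 8. The serum response element was searched in a single exact spelling (0.0609%), which also had no match. Its variants were not searched, so the search cannot tell whether these promoters, that of Dusp5 included, hold the element in another spelling. A match describes letters and is not evidence of binding. The Socs1 stretch ends at the base next to the gene's outer boundary in GENCODE M21, whereas the Socs3 and Dusp1 stretches lie within the span that this annotation gives to each gene, ahead of the RefSeq start.

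The values are FPKM (fragments per kilobase of transcript, scaled to the mapped total), which correct for transcript length and library size, and read totals were not given, so the depth behind each value is unknown. Pearson correlations of log2(FPKM + 1) over 10751 genes were 0.938 to 0.995 among NC libraries, 0.888 to 0.995 among COM libraries and 0.989 to 0.995 among COM+Met libraries. NC-5 and NC-6 stood apart from NC-1 to NC-4, COM-4 and COM-5 from COM-1 to COM-3, and COM-6 from both. The 8 macrophage markers summed to 10601 FPKM or more in every library, most of it Lyz2 (8531 to 14541 FPKM). Of them 3 were called higher in COM than in NC (Adgre1, Cd14 and Fcgr1), and Mertk was lower (limma adjusted p = 0.0193). The 22 tubular epithelial markers summed to 11.0 to 18.4 FPKM in NC (most of it Cdh1), 0.484 to 1.37 in COM and 0.0603 to 0.332 in COM+Met. Of the 16 neutrophil markers, Lcn2 was 9.03 to 39.1 FPKM in NC, 640 to 1672 in COM and 628 to 712 in COM+Met, while the other 15 summed to 552 to 1035, 180 to 617 and 79.2 to 143 FPKM. In COM against NC 2 of them were called higher, Lcn2 and Mmp9, and 5 lower, S100a9, Ngp, Ltf, Cd177 and Cxcr2, with a median log2 change of -1.21 over the 10 tested, and Mpo, Elane, Retnlg and Ly6g were at or near 0 in COM and COM+Met. The 10 stromal markers summed to 26.6 to 87.6, 7.70 to 45.0 and 5.22 to 10.3 FPKM. The part of these markers in the results was not tested, and in bulk RNA fewer cells of a type and less RNA per cell cannot be told apart.

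On this per-length scale Socs3 was the most abundant of the 10 genes, with a mean level of 47.5 FPKM over the 18 libraries, followed by Dusp1 at 19.6, Dusp4 at 15.1, Dusp6 at 14.1 and Socs1 at 10.4 FPKM. Dusp16 at 7.19, Socs2 at 5.63, Dusp5 at 5.32 and Cish at 2.99 FPKM were lower. Within groups the spreads of many neighbours in this order overlapped, as in NC for Socs3 (15.1 ± 8.96 FPKM), Dusp6 (12.8 ± 5.14) and Dusp1 (11.8 ± 6.28; SD, n = 6 each). These spreads are between libraries that the genes share, and within every NC library Socs3 was above Dusp1. Dusp2 was the least abundant, at 0.770 ± 0.152 FPKM in NC, 0.763 ± 0.167 in COM and 0.848 ± 0.248 in COM+Met (SD, n = 6 each). Dusp2 stayed under the minimum mean of 1 FPKM set for testing in every comparison, so 9 of the 10 genes passed that filter. Its groups overlapped almost fully, and 2-sided exact permutation tests gave p = 0.911 for COM against NC, 0.530 for COM+Met against COM and 0.563 for COM+Met against NC.

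**Figure D1:**
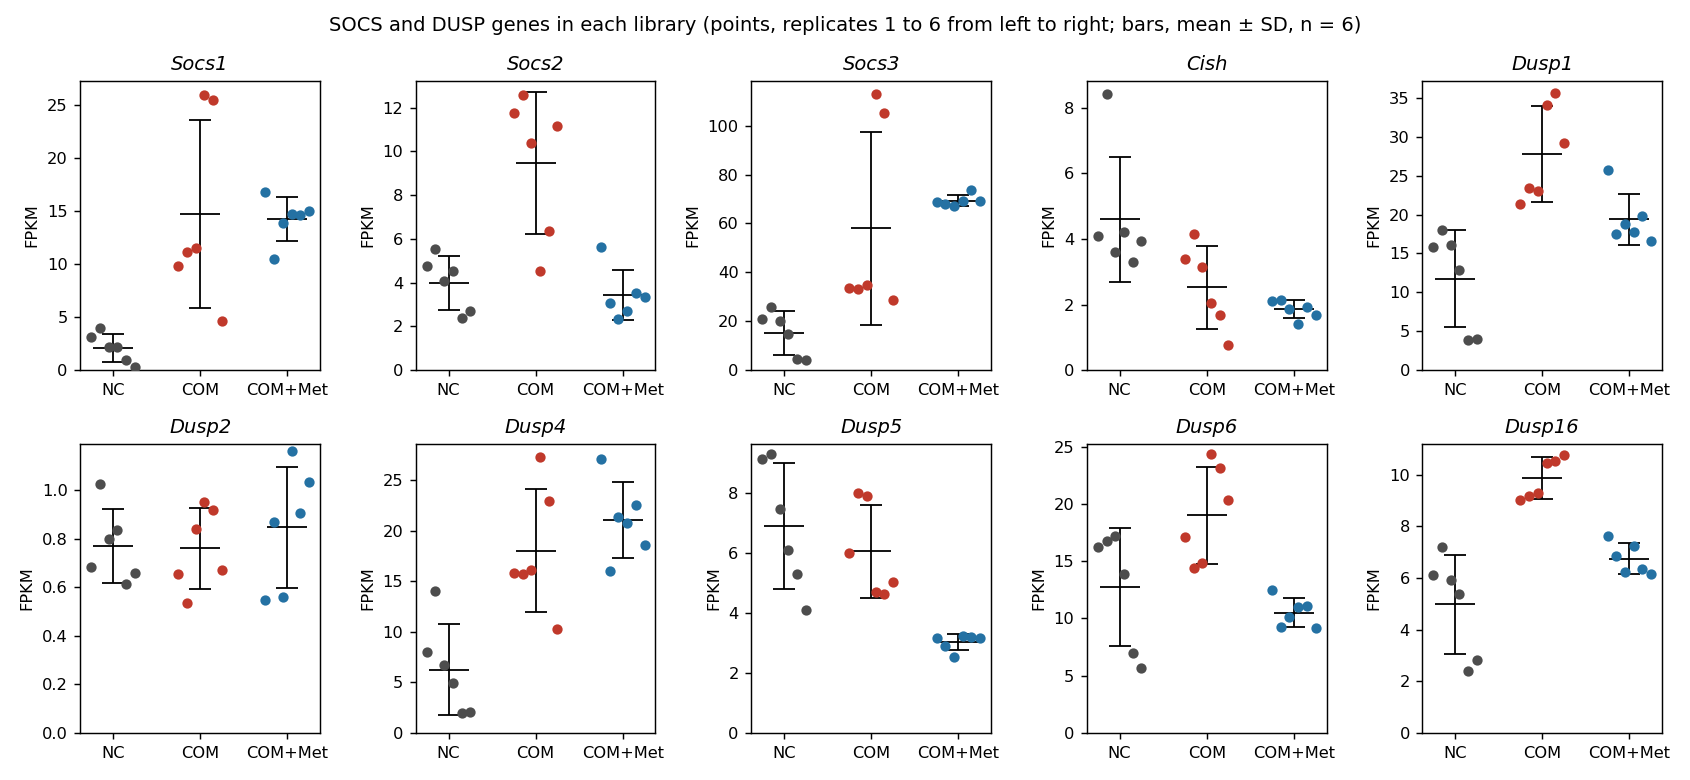
FPKM of each SOCS and DUSP gene (y axis) in the libraries of NC, COM and COM+Met (x axis, points in replicate order, bars showing the mean and SD of 6 libraries). Socs1, Socs3, Dusp1 and Dusp16 have no overlap between NC and COM, and Dusp5, Dusp6 and Dusp16 have none between COM and COM+Met.

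Crystal exposure of the TECs was compared first, COM against NC. Of the 9 genes tested, 5 were called higher, Socs1, Socs3, Dusp4, Dusp1 and Socs2, and none lower, where called means an adjusted p from limma below 0.05 with a log2(FPKM + 1) difference of 2-fold or more. Over all 10900 genes tested, 17.7% were called, 5.99% higher and 11.7% lower. An adjusted p below 0.05 without the fold limit was reached by 7 of the 9 genes, 6 higher and 1 lower, against 53.3% of all genes (12.7% higher, 40.6% lower). The median log2 change of the 9 genes was 1.03 and that of all genes was -0.27. Centring all genes by median-of-ratios size factors brought the latter to -0.0045 and called 859 genes higher and 834 lower in place of 653 and 1273, so a change below is also to be read against -0.27.

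Socs1, which blocks the catalytic activity of JAKs and is a main brake on interferon signalling, was low in NC, from 0.348 to 3.95 FPKM with a median of 2.22. In COM it ranged from 4.6 to 26.0 FPKM with a median of 11.3. Every COM library was above every NC library. The mean level rose from 2.13 ± 1.33 in NC to 14.8 ± 8.87 FPKM in COM (SD over 6 libraries), and the log2 fold change was 2.26 (SE 0.40, limma adjusted p = 0.000535). Socs1 (ENSMUSG00000038037) lies on chromosome 16 at 10782240 to 10785536 of GRCm38, minus strand.

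Socs3 inhibits signalling through the gp130 chain of the interleukin-6 receptor family. Its level was 4.09 to 25.8 FPKM in NC (median 17.5) and 28.8 to 112.8 FPKM in COM (median 34.2), again with no overlap. COM-4 and COM-5, at 112.8 and 105.0 FPKM, stood far above the other 4 COM libraries, which lay between 28.8 and 35.0. The log2 fold change was 1.90 (SE 0.50, limma adjusted p = 0.00641) between means of 15.1 ± 8.96 and 58.1 ± 39.5 FPKM (SD, n = 6 each). It was 1.38 with an adjusted p of 0.0546 from limma without COM-4 to COM-6, and 0.89 when limma weighted the libraries by their scatter. Socs3 (ENSMUSG00000053113) lies on chromosome 11 at 117966079 to 117970047, minus strand.

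Socs2, best known as the inhibitor of growth hormone signalling, ranged from 2.40 to 5.55 FPKM in NC (median 4.29) and from 4.54 to 12.6 in COM (median 10.8). COM-4, at 4.54 FPKM, lay inside the NC range, and COM-5, at 6.34, just above it. Means were 4.0 ± 1.23 and 9.45 ± 3.24 FPKM (SD, n = 6 each), with a log2 fold change of 1.03 (SE 0.24, limma adjusted p = 0.00309). This sits at the 2-fold limit, and the call was lost, at 0.93 to 0.99, on leaving out any one of NC-5, NC-6, COM-1, COM-2, COM-3 or COM-6. Socs2 (ENSMUSG00000020027) lies on chromosome 10 at 95385362 to 95417180, minus strand.

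Cish, a STAT5 target that inhibits STAT5-activating receptors, was the only gene of the set with a lower level at an adjusted p below 0.05. NC libraries ranged from 3.29 to 8.42 FPKM (median 4.02) and COM libraries from 0.753 to 4.14 (median 2.59). The ranges overlapped, since COM-1 and COM-2 reached NC levels. The log2 fold change was -0.70 (SE 0.26, limma adjusted p = 0.0371), below the 2-fold limit. The adjusted p became 0.103 with size factors and 0.371 without COM-4 to COM-6 (limma), while without COM-1 to COM-3 the change was -1.15 and called. Cish (ENSMUSG00000032578, chromosome 9 at 107296026 to 107302784, plus strand) shares 479 and 261 of its 6419 exon bases with the opposite-strand genes Gm17041 and Gm17040, whose reads an unstranded library cannot separate from its own.

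Among the phosphatases, Dusp1 (MKP-1), a nuclear enzyme that acts on p38, JNK and ERK and limits macrophage cytokine output, was 3.94 to 18 FPKM in NC (median 14.3) and 21.3 to 35.6 in COM (median 26.3). No COM library fell within the NC range. Means were 11.8 ± 6.28 and 27.8 ± 6.11 FPKM (SD, n = 6 each), and the log2 fold change was 1.35 (SE 0.35, limma adjusted p = 0.00625). NC-5 and NC-6 were at 3.94 and 3.97 FPKM, and without them the log2 fold change was 0.77, still with an adjusted p of 0.00409 from limma, and without COM-4 to COM-6 it was 1.09 with an adjusted p of 0.0794 (limma). Dusp1 (ENSMUSG00000024190) spans chromosome 17 at 26505590 to 26562128, minus strand, in GENCODE M21, and shares 11 of 3311 exon bases with Ergic1 on the other strand.

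Dusp4 (MKP-2), another inducible nuclear phosphatase, ranged from 1.97 to 14.0 FPKM in NC (median 5.80) and from 10.3 to 27.3 in COM (median 16.0). The groups met only where NC-2, at 14.0 FPKM, exceeded COM-6, at 10.3. The log2 fold change was 1.56 (SE 0.37, limma adjusted p = 0.00378), from 6.27 ± 4.50 to 18 ± 6.06 FPKM (SD, n = 6 each). With Socs1, Dusp4 (ENSMUSG00000031530, chromosome 8 at 34807297 to 34819894, plus strand) kept its call under each of the 12 alternatives of processing or library choice and on leaving out any single library.

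Dusp16 (MKP-7), which prefers JNK and p38, was the most even gene of the set in COM. Its level was 2.40 to 7.19 FPKM in NC (median 5.66) and 9.02 to 10.8 in COM (median 9.87), with no overlap. The means were 4.97 ± 1.93 and 9.86 ± 0.796 FPKM (SD, n = 6 each), and the log2 fold change of 0.93 (SE 0.20, limma adjusted p = 0.00198) fell just short of the 2-fold limit, which it passed at 1.2 with size factors and at 1.04 without NC-2. Dusp16 (ENSMUSG00000030203) lies on chromosome 6 at 134715468 to 134792625, minus strand.

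Dusp6 (MKP-3), the cytoplasmic ERK-specific phosphatase, was 5.68 to 17.2 FPKM in NC (median 15) and 14.4 to 24.3 in COM (median 18.7). The COM-1 to COM-3 values, 14.4 to 17.1 FPKM, lay within the NC range. The log2 fold change of 0.62 (95% interval 0.05 to 1.19, limma adjusted p = 0.0633) missed the threshold with the values as deposited, passed it at 0.91 with size factors (adjusted p = 0.022, limma), and was 0.21 without NC-5 and NC-6. Dusp6 (ENSMUSG00000019960) lies on chromosome 10 at 99263231 to 99267489, plus strand.

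Dusp5, a nuclear ERK-specific phosphatase, ranged from 4.10 to 9.29 FPKM in NC (median 6.77) and from 4.61 to 8.0 in COM (median 5.52). The COM range lay wholly inside the NC range. The log2 difference was -0.15 (95% interval -0.56 to 0.27, limma adjusted p = 0.530), and its sign turned to 0.12 with size factors. Dusp5 (ENSMUSG00000034765, chromosome 19 at 53529109 to 53542431, plus strand) shares 547 of 2473 exon bases with AC137853.2 on the opposite strand.

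Without overlap between the groups, 4 of the 9 genes were higher in COM (Socs1, Socs3, Dusp1 and Dusp16) and none lower, where 38.2% of all genes had groups that did not overlap, 8.6% higher and 29.7% lower. With 6 libraries against 6, the smallest p that the exact 2-sided permutation test can give is 0.00216. Any gene whose groups do not overlap has this p, so for these 4 genes it restates the lack of overlap.

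**Figure D2:**
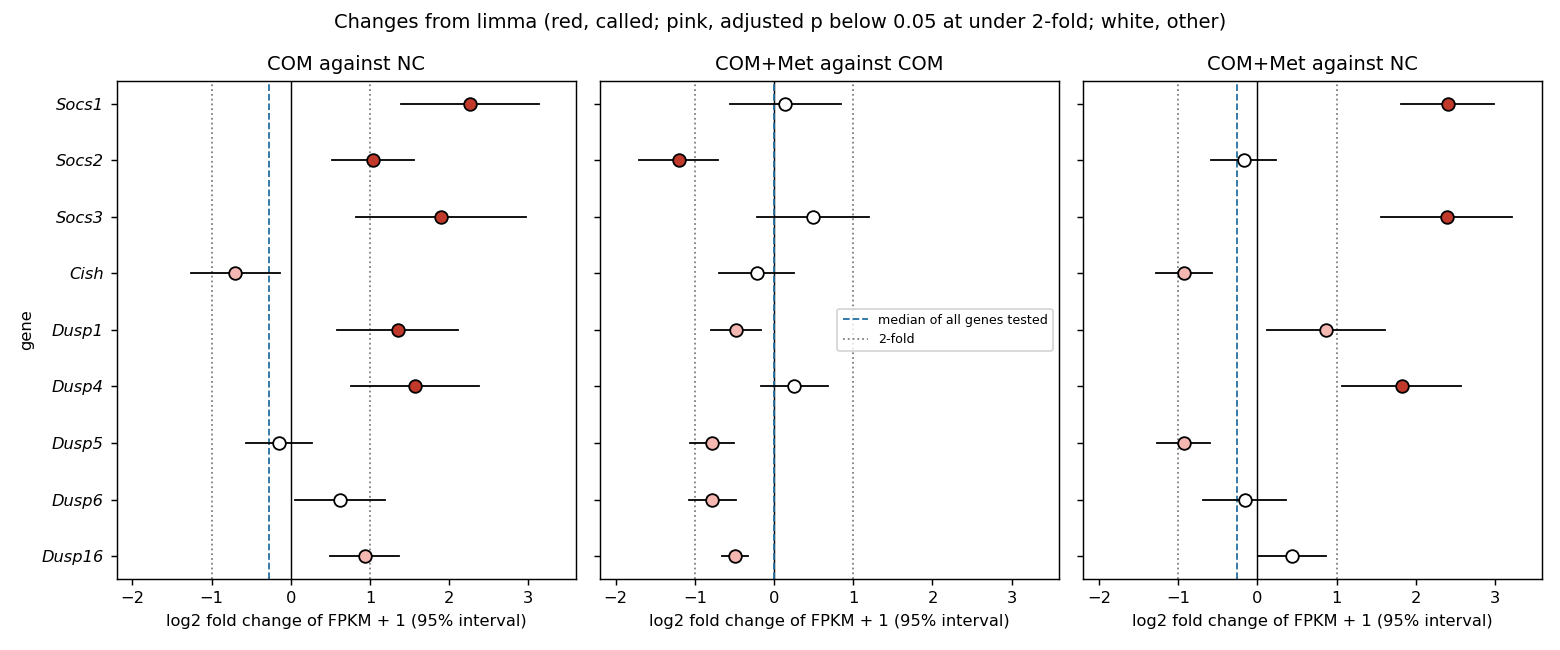
Log2 fold change of FPKM + 1 with its 95% interval (x axis) for each gene tested (y axis) in the 3 comparisons, coloured by the limma result. Socs1, Socs3 and Dusp4 lie to the right against NC in both COM and COM+Met, while in COM+Met against COM the intervals of Socs2, Dusp1, Dusp5, Dusp6 and Dusp16 lie wholly left of 0.

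The libraries of a group did not share 1 pattern across the set. NC-5 and NC-6 were the lowest NC libraries for 8 of the 9 genes, all but Cish, a position they held for 27.2% of the 10751 genes averaging 1 FPKM or more. Socs1 was 0.938 and 0.348 FPKM there against 2.22 to 3.95 in the other NC libraries, and Dusp1 3.94 and 3.97 against 12.8 to 18. The neutrophil markers other than Lcn2 were also lower in these libraries, at 552 and 571 FPKM against 892 to 1035 in the other four. Their part in the low SOCS and DUSP values was not tested.

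COM-4 and COM-5 were the highest COM libraries for Socs1, Socs3, Dusp1, Dusp4 and Dusp6 (5 of 9, against 9.6% of all genes) and the lowest for Socs2 and Dusp5 (2 of 9, against 24.8%). Socs1 was 25.5 to 26.0 FPKM there, 9.85 to 11.6 in COM-1 to COM-3 and 4.6 in COM-6. Socs2 ran the other way among these libraries, at 4.54 to 6.34 FPKM in COM-4 and COM-5, 10.4 to 12.6 in COM-1 to COM-3 and 11.1 in COM-6. For Dusp1, Dusp6 and Dusp16 the COM-4 to COM-6 libraries were each above COM-1 to COM-3 (3 of 9, against 9.19% of all genes), and for Cish and Dusp5 each below them (2 of 9, against 44.6%). Lcn2 was 1533 to 1672 FPKM in COM-4 to COM-6 and 640 to 721 in COM-1 to COM-3, whereas the other 15 neutrophil markers summed to 180 to 238 and to 578 to 617 FPKM. The labels name no batch for these libraries, and the source of the split was not tested.

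**Figure D3:**
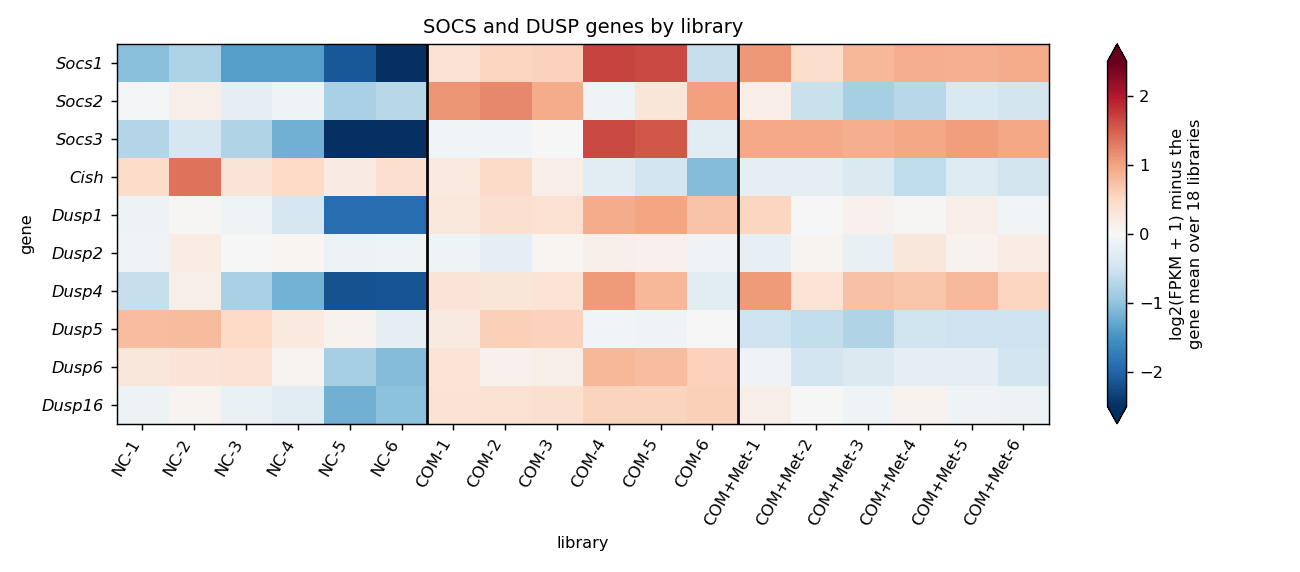
Log2(FPKM + 1) of each gene minus its mean over the 18 libraries (colour), with genes as rows and libraries as columns. Socs1 and Socs3 are highest in COM-4 and COM-5 and lowest in NC-5 and NC-6, Socs2 is high in COM-1 to COM-3 and COM-6, and the COM+Met columns look alike.

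**Figure D4:**
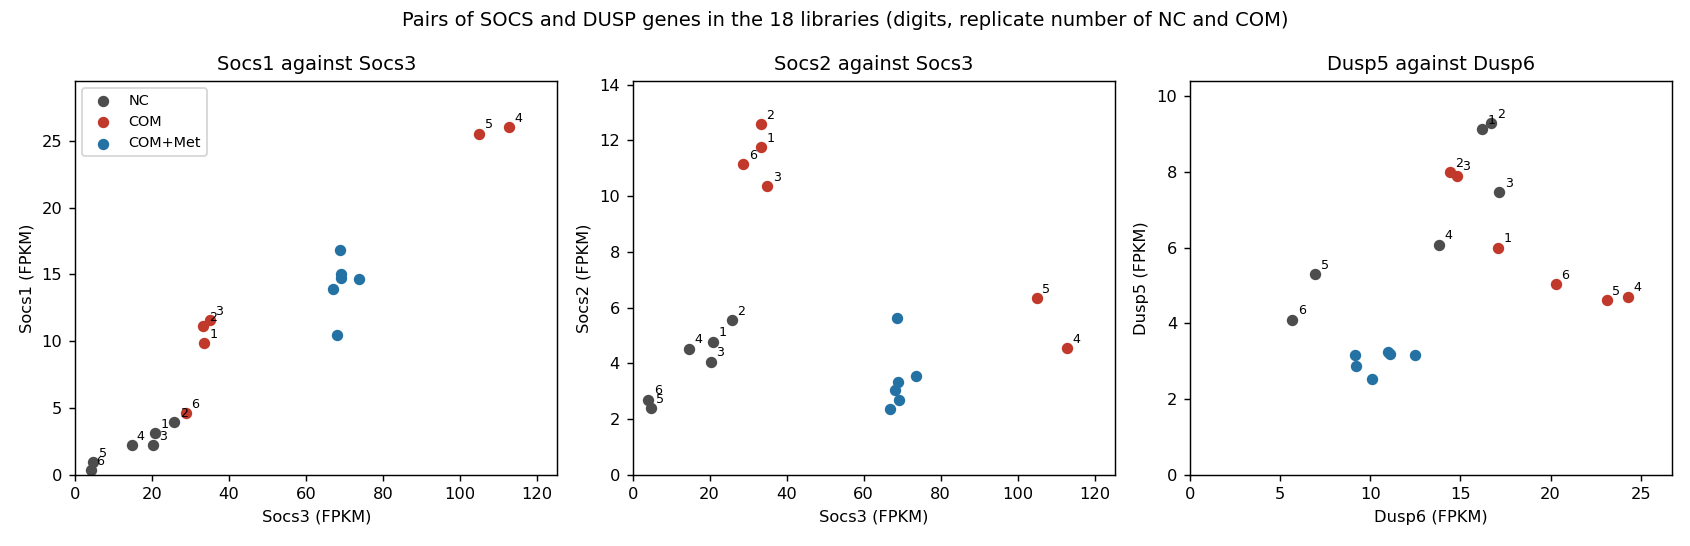
FPKM of pairs of SOCS and DUSP genes (x and y axes) in the 18 libraries, coloured by group, with digits for the replicate numbers of NC and COM. COM-4 and COM-5 sit at the top of the Socs3 range with the lowest Socs2 of COM, and the COM+Met libraries lie close together on the Socs3, Dusp5 and Dusp6 axes.

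Met treatment was then examined by comparing COM+Met with COM, which share the crystal-exposed TECs. Socs2 was the only gene of the set called, and it was lower, where 2.22% of the 10364 genes tested were called, 0.608% higher and 1.61% lower. An adjusted p below 0.05 was reached by 5 of the 9 genes, all lower (Dusp16, Dusp5, Dusp6, Socs2 and Dusp1), against 13.4% of all genes (5.77% higher, 7.58% lower). The median log2 difference was -0.49 over the 9 genes and 0.0033 over all genes. The groups did not overlap for Dusp5, Dusp6 and Dusp16, all lower in COM+Met (3 of 9, against 11.2% of all genes, 5.83% higher and 5.34% lower).

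Socs2 fell from 9.45 ± 3.24 to 3.43 ± 1.15 FPKM (SD, n = 6 each). COM+Met libraries ranged from 2.35 to 5.62 FPKM with a median of 3.19, so that COM+Met-1, at 5.62, exceeded COM-4, at 4.54. The log2 fold change was -1.2 (SE 0.23, limma adjusted p = 0.00507). It was -1.54 against COM-1 to COM-3 alone and -0.87, no longer 2-fold, against COM-4 to COM-6 alone (adjusted p = 0.0383, limma).

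The ERK phosphatases Dusp5 and Dusp6 and the JNK and p38 phosphatase Dusp16 fell by less than 2-fold, with every COM+Met library below every COM library. Dusp5 was 2.52 to 3.24 FPKM in COM+Met (median 3.16) against a lowest COM value of 4.61, a log2 fold change of -0.78 (SE 0.13, limma adjusted p = 0.00228). Dusp6 was 9.17 to 12.5 FPKM (median 10.5) against 14.4 or more in COM, also -0.78 (SE 0.14, limma adjusted p = 0.00304). These levels of Dusp6 lay below those of NC-1 to NC-4 (13.8 to 17.2 FPKM) and above those of NC-5 and NC-6 (5.68 to 6.95).

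Dusp16 was 6.15 to 7.63 FPKM in COM+Met (median 6.59) against 9.02 or more in COM, a log2 fold change of -0.49 (SE 0.08, limma adjusted p = 0.00159). Dusp1 was 16.6 to 25.7 FPKM in COM+Met (median 18.3), and only COM+Met-1, at 25.7, exceeded the lower COM libraries. Its log2 fold change was -0.49 (SE 0.15, limma adjusted p = 0.044), and the adjusted p rose to 0.0917 with size factors and to 0.10 without COM-4 to COM-6 (limma). COM+Met-1 was the highest COM+Met library for 6 of the 9 genes, against 33.1% of all genes.

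For Socs1, Socs3, Dusp4 and Cish the test found no difference between COM+Met and COM, with intervals that allow changes of some size. Socs1 was 10.5 to 16.8 FPKM in COM+Met (median 14.7), inside the COM range, with a log2 difference of 0.14 (95% interval -0.56 to 0.85, limma adjusted p = 0.807). Dusp4, at 16.1 to 27.1 FPKM (median 21.1), differed by 0.26 (95% interval -0.17 to 0.68, limma adjusted p = 0.419). Cish, at 1.40 to 2.14 FPKM (median 1.89), differed by -0.22 (95% interval -0.70 to 0.26, limma adjusted p = 0.548), with -0.67 against COM-1 to COM-3 and 0.23 against COM-4 to COM-6.

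Socs3 showed the plainest gap between the COM libraries. The 6 COM+Met libraries lay within 67.0 to 73.7 FPKM (median 68.9), which is above COM-1 to COM-3 and COM-6 (28.8 to 35.0) and below COM-4 and COM-5 (105.0 to 112.8). No COM library fell within the COM+Met range, which was also so for Dusp5, Dusp6 and Dusp16 (4 of 9, against 25.7% of all genes). The log2 difference was 0.50 (95% interval -0.21 to 1.2, limma adjusted p = 0.348). Against COM-1 to COM-3 alone it was 1.01 (adjusted p = 3.43e-09, limma), and against COM-4 to COM-6 alone -0.018 (adjusted p = 0.975, limma), so the choice of COM libraries decides the value.

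COM+Met was also compared with NC. This comparison shares its NC libraries with COM against NC and its COM+Met libraries with the preceding one, so the 3 sets of values are not independent. Socs1, Socs3 and Dusp4 were called higher (3 of 9) and no gene lower, where 19.3% of the 10786 genes tested were called, 5.66% higher and 13.6% lower. An adjusted p below 0.05 was reached by 6 of the 9 genes, 4 higher and 2 lower, against 75.2% of all genes (19.3% higher, 55.9% lower), so that share was not above the background. The median log2 difference was 0.44 over the 9 genes and -0.26 over all genes. Size factors moved the latter to -0.0049 and the calls over all genes from 611 higher and 1467 lower to 827 and 1003.

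Socs1 rose to 14.3 ± 2.10 FPKM in COM+Met, a log2 fold change of 2.40 from NC (SE 0.27, limma adjusted p = 3.27e-06). Socs3 rose to 69.3 ± 2.30 FPKM, with a log2 fold change of 2.39 (SE 0.38, limma adjusted p = 8.17e-05). Dusp4 rose to 21.1 ± 3.75 FPKM, with a log2 fold change of 1.82 (SE 0.35, limma adjusted p = 0.00037; SD over n = 6 for each mean). For these 3 genes every COM+Met library was above every NC library.

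Cish and Dusp5 lay below NC in every COM+Met library. Cish fell from 4.6 ± 1.91 to 1.86 ± 0.279 FPKM (log2 fold change -0.92, SE 0.16, limma adjusted p = 0.000196) and Dusp5 from 6.89 ± 2.10 to 3.03 ± 0.277 FPKM (-0.93, SE 0.15, limma adjusted p = 0.000119; SD, n = 6 each). Neither reached the limit of a call on the log2(FPKM + 1) scale, which compresses changes of low genes, although the FPKM means were 0.404 and 0.439 times those of NC. Both passed it without NC-5 and NC-6, at -1.04 and -1.15, and that of Dusp5 also without NC-6 alone, at -1.05. Groups without overlap were thus 3 higher and 2 lower of 9, against 14.1% higher and 43.6% lower of all genes (57.6% in all).

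Dusp1 was higher in COM+Met than in NC at 0.86 (SE 0.34, limma adjusted p = 0.0356), under 2-fold, at 0.28 without NC-5 and NC-6, and at 1.02, a call, without NC-2. Socs2 differed by -0.17 (95% interval -0.58 to 0.24, limma adjusted p = 0.424) and Dusp6 by -0.16 (95% interval -0.69 to 0.37, limma adjusted p = 0.565), and size factors turned both signs, to 0.059 and 0.11. Dusp16 differed by 0.44 (95% interval 0.01 to 0.87, limma adjusted p = 0.0575).

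Set side by side, Socs1, Socs3 and Dusp4 had mean levels in COM and in COM+Met that were both 2.88-fold or more those of NC. Socs2 had a COM mean 2.36 times that of NC and a COM+Met mean 0.858 times that of NC. Dusp16 and Dusp1 had COM+Met means between the other two, at 1.36 and 1.65 times NC against 1.98 and 2.36 times in COM. Cish and Dusp5 had their lowest mean in COM+Met, at 0.404 and 0.439 times NC.

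Genes around the feedback inhibitors were counted from lists of their pathways. Of the 8 other SOCS family and SOCS-box ligase genes, 1 was called in COM against NC, Socs6, which fell from 9.03 ± 1.95 FPKM in NC to 3.88 ± 0.505 in COM (SD over 6 libraries), while 3 had an adjusted p below 0.05, all lower. The Socs6 call was lost without NC-4 (at -0.93), COM-5 or COM-6. None of the 8 was called in the other comparisons, and 0 and 6 had an adjusted p below 0.05 (limma, with 1 and 6 at an unadjusted p below 0.05), the 6 of them lower in COM+Met than in NC. Over all genes, an adjusted p below 0.05 was reached by 53.3% in COM against NC (40.6% lower). In COM+Met against NC it was reached by 75.2% (55.9% lower), so the counts of 3 and 6 are not read as a result about this list. Of 10 other inhibitors of JAK-STAT signalling, Usp18, which removes ISG15 and restrains the interferon receptor, was called higher in COM, at 161 ± 117 against 6.50 ± 4.32 FPKM in NC (SD, n = 6 each), and again in COM+Met, at 190 ± 8.29 FPKM. Sh2b3, an adaptor that restrains JAK2, was called lower in COM+Met than in NC, with a log2 fold change of -1.18. None of the 10 was called in COM+Met against COM by limma, and 1 had an unadjusted p below 0.05.

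Against 5.99% of all genes called higher and 11.7% lower, 4 of 11 JAK and STAT genes upstream of the SOCS genes were called higher in COM and none lower. Among them, Stat4 rose from 0.191 ± 0.15 to 8.55 ± 2.84 FPKM and Jak2 from 28.1 ± 11.9 to 134 ± 40.2 (SD, n = 6 each), with log2 fold changes of 2.95 and 2.29, and Stat2, named after its value had been seen, was at 2.26. Stat4, which transmits interleukin-12 signals, was the only one called in COM+Met against COM, at -1.26, falling to 2.85 ± 0.447 FPKM. Against NC, 4 of the 11 were called higher in COM+Met (5.66% of all genes), among them Stat2, Jak2 and Stat4.

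Of 15 cytokine receptor chains, Ifnar2, a chain of the type I interferon receptor, was called higher in COM at 1.39 and in COM+Met against NC at 1.58. Il6ra and Il6st, the chains of the interleukin-6 receptor through which Socs3 acts, were called lower in COM, at -1.28 and -1.05. The Il6st call was lost without any one of NC-1 to NC-4, COM-4 or COM-5, at -0.93 without NC-4. Against NC, COM+Met also had Il2rg called higher at 1.02 and Il6ra and Ifngr1 called lower at -1.91 and -1.09, and the Il2rg call was lost at 0.90 without NC-5 or NC-6. In COM+Met against COM 0 of the 15 were called by limma, with 2 lower at an adjusted p below 0.05 (7.58% of all genes) and 3 at an unadjusted p below 0.05.

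Among the 7 other dual-specificity phosphatases listed, 4 passed the filter on low values. All 4 were called lower in COM than in NC, against 11.7% of all genes, whereas 2 of the 5 tested DUSP genes above were called higher. Dusp9, below 1 FPKM in every COM library, passed the filter only through NC, so its place in this count follows partly from the filter. Dusp3 fell from 46.0 ± 2.76 to 16.8 ± 3.35 FPKM, Dusp22 from 12.1 ± 1.17 to 4.19 ± 0.967 and Dusp9 from 1.86 ± 1.59 to 0.24 ± 0.0819 (SD, n = 6 each), at -1.42, -1.36 and -1.04. The fourth, Dusp7, at -1.0, was named after its value had been seen. The calls of Dusp9 and Dusp7 sit at the limit: both were lost with size factors (-0.92 and -0.73), quantile normalisation, sample weights and a pseudocount of 5, and that of Dusp7 also without NC-5 and NC-6, without COM-4 to COM-6, or without any one of NC-4, NC-5, NC-6, COM-3 or COM-6. Dusp3 and Dusp22 were also called lower in COM+Met against NC, at -1.24 and -1.37.

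Of 8 other feedback inhibitors of ERK signalling, such as the Sprouty and Spred genes, 4 could be tested and none was called. In COM against NC 2 were higher at an adjusted p below 0.05, against 12.7% of all genes (2 of the 4 at an unadjusted p below 0.05, limma). Of 22 MAP kinase cascade kinases, 19 were tested in COM against NC and none was called, with 2 higher and 7 lower at an adjusted p below 0.05 (9 at an unadjusted p below 0.05, limma). Of all genes, 12.7% were higher and 40.6% lower at that adjusted p, so these counts were not above the background. Of these kinases only Mapk13 was called in any comparison, lower in COM+Met than in NC at -1.31, from 1.88 ± 0.657 to 0.152 ± 0.228 FPKM (SD over 6 libraries). At these low levels its value was -0.41 with a pseudocount of 5 and -0.91 with quantile normalisation, neither a call. Mapk13 passed the filter on low values only through NC, and it stayed in the test on leaving out only 7 of the 12 libraries singly.

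Of 18 immediate early and ERK output genes, 15 were tested in COM against NC and 3 were called, all lower, against 11.7% of all genes. Myc fell from 11.3 ± 1.92 to 0.328 ± 0.153 FPKM, Fos from 19.4 ± 2.18 to 4.59 ± 0.72 and Egr2 from 35.9 ± 13.5 to 10.9 ± 6.11 (SD, n = 6 each), with log2 fold changes of -3.20, -1.87 and -1.72. Phlda1 and Fosl2 were called lower in COM+Met than in COM, at -1.27 and -1.06, and both lost the call without COM-1 to COM-3 (-0.88 and -0.35). Fosl2 also lost its call in limma with the replicate number as a block (adjusted p = 0.0563) and without any one of COM-1 to COM-3 or COM+Met-2 to COM+Met-6. In COM+Met against NC 7 of the 15 tested were called lower (13.6% of all genes), among them Myc at -3.03, Fos at -2.42 and Egr2 at -1.69.

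Some of the other calls named from the lists were also lost under a changed processing or without some libraries. A pseudocount of 5 ended those of Socs6, Il6ra, Il6st and Dusp22 in COM against NC, of Stat4, Phlda1 and Fosl2 in COM+Met against COM, and of Sh2b3, Ifngr1, Il2rg, Stat4 and Dusp22 in COM+Met against NC. Size factors ended those of Socs6 and Il6st in COM against NC and of Sh2b3, Ifngr1 and Dusp3 in COM+Met against NC. Quantile normalisation ended those of Socs6, Il6ra and Il6st in COM against NC and of Sh2b3 and Ifngr1 in COM+Met against NC. Sample weights ended those of Socs6 and Il6ra in COM against NC and of Il2rg in COM+Met against NC. Without COM-4 to COM-6, the COM against NC calls of Egr2 (-0.99), Il6st (-0.82) and Socs6 (-0.92) were lost. The calls of Usp18, Jak2, Stat2, Ifnar2, Myc and Fos against NC held under every alternative that was run.

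The median log2 change in COM against NC was 0.60 over the JAK and STAT genes, 0.012 over the receptor chains, -0.11 over the other JAK-STAT inhibitors and -0.27 over the other SOCS family genes, where all genes had a median of -0.27. On the MAP kinase side it was -1.2 over the other dual-specificity phosphatases, 0.18 over the other ERK feedback inhibitors, -0.21 over the cascade kinases and -0.57 over the immediate early and ERK output genes. In COM+Met against COM the medians of these 8 lists lay between -0.18 and 0.14, where all genes had a median of 0.0033.

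**Figure D5:**
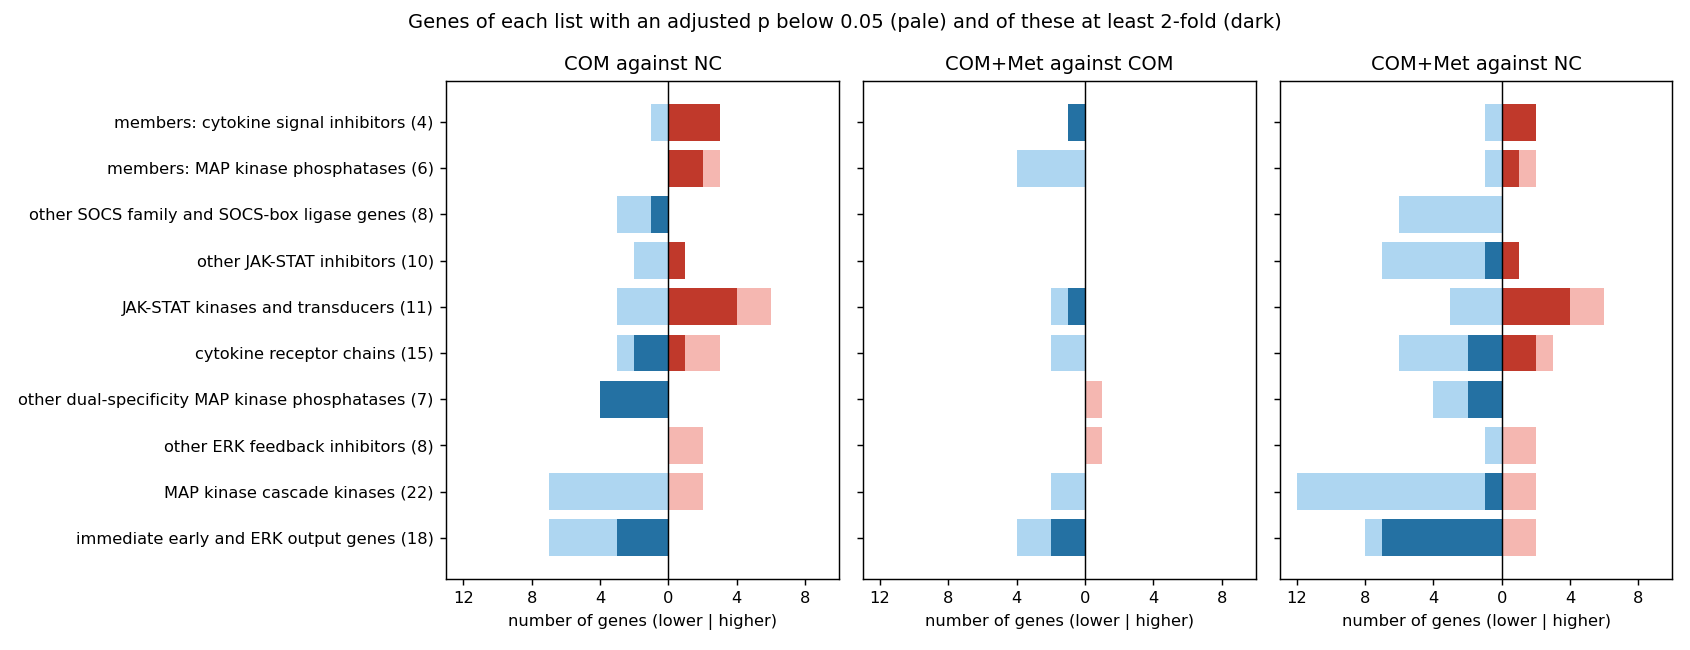
Number of genes of each list (y axis, number listed in brackets) with an adjusted p below 0.05, lower to the left and higher to the right (x axis), with darker bars for those that also changed at least 2-fold, in each of the 3 comparisons. The DUSP genes followed here appear on the higher side in COM against NC and the other dual-specificity phosphatases on the lower side.

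The genes nearest to each SOCS and DUSP gene in profile were found by the root mean square difference of centred log2(FPKM + 1) over the 18 libraries, among 10751 genes, and are given as a description. Parp10 (0.32) and Mmp2 (0.33) were nearest to Socs1, Tmem123 (0.19) and Rabgap1l (0.25) to Socs2, F10 (0.34) and Marcksl1 (0.36) to Socs3, and Myo1g and Shc1 (0.23 each) to Cish. Spred1 (0.22), itself an inhibitor of the ERK pathway, and Runx3 (0.23) were nearest to Dusp1, and Ehd1 (0.27) and F10 (0.28) to Dusp4. Arrdc4 (0.14) and Mob3b (0.18) were nearest to Dusp5, Bcl6 (0.20) and H2-Oa (0.22) to Dusp6, and Snx18 (0.15) and Cd80 (0.17) to Dusp16. F10 was thus near both Socs3 and Dusp4, and no gene of the set was among the 2 nearest of another.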

How the data were processed

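Mouse BMDMs were profiled in 18 RNA-seq libraries, 6 per group, grouped by the treatment label. Per the labels, libraries were made with the TruSeq RNA kit, which does not mark strand. The authors deposited FPKM per gene in 1 table, whose 18 sample columns were all used. The submitters' processing notes list mm8, mm9 and Bowtie 0.12.2, while the quantifier and read totals are not given in the sources used, so no counting intervals could be set. FPKM sums were 380731 to 449186 per library.

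For each comparison, genes averaging 1 FPKM or more over its 12 libraries were tested on log2(FPKM + 1). A gene averaging under 1 FPKM in 1 group, such as Dusp9, Mapk13, Myc or Stat4, passed only through the other group, where it was higher. The test was limma 3.58.1 (trended empirical Bayes, R 4.3.3), with Benjamini-Hochberg adjustment over all tested genes. The 1 added to FPKM compresses the fold changes of low genes. Calls needed an adjusted p below 0.05 and a 2-fold change on that scale. Dusp2 was tested by exact permutation. The procedure was tested on simulated data. The genes followed and the lists were chosen with earlier results of these data known. Named from each pathway list were up to 3 called genes with the largest change per direction and comparison, and for each gene followed the 2 nearest profiles; 1 item that the rule selects is not reported here. Genomic spans come from GENCODE M21 on GRCm38, not the builds of the notes. Alternatives were other pseudocounts, filters and scalings, a replicate block, a joint fit, sample weights and left-out libraries.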

Additional observations from a re-analysis of the deposited data

Results flagged for a closer look

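Dixon's test, on log2(FPKM + 1), was applied to 30 combinations of a gene and a group of 6 libraries. Chance flags about 1 combination in 20, and the gaps and ranges below are on that log scale. In 2 of the 30 combinations the extreme library lay apart from the rest of its group. Socs3 in COM+Met-5 was 73.7 FPKM, with a gap of 0.668 of the group's range to the next library, above the critical value of 0.625. Cish in NC-2 was 8.42 FPKM, with a gap of 0.749 of the range.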

How the results depend on the processing

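With depth unknown, the precision of single values cannot be set. For many of these genes, much of the spread within NC or COM lay between NC-5, NC-6 or COM-4 to COM-6 and the rest. Other libraries added to the spread, such as NC-2 for Cish and COM+Met-1 for Socs2. The cause of the changes below was not tested unless the setting leaves libraries out. For COM against NC, 5 of the SOCS and DUSP genes were called and 3 with sample weights (Socs1, Socs2, Dusp4), 3 without NC-5 and NC-6 (Socs1, Socs3, Dusp4), 3 without COM-4 to COM-6 (Socs1, Socs2, Dusp4) and 4 to 6 on leaving out 1 library. For COM+Met against COM, 1 was called and 0 with a pseudocount of 5 (limma, 5 at an unadjusted p below 0.05), 2 with sample weights (Socs2, Dusp5), 3 without COM-4 to COM-6 (Socs2, Socs3, Dusp5) and 1 to 1 on leaving out 1 library. For COM+Met against NC, 3 were called and 5 with a pseudocount of 0.1 or without NC-5 and NC-6 (Cish and Dusp5 added), and 3 to 4 on leaving out 1 library.

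Over all genes, calls in COM against NC went from 1926 to 980 with a pseudocount of 5 (1727 to 2073 on leaving out 1 library). In COM+Met against COM they went from 230 to 370 and 90 with pseudocounts of 0.1 and 5, 719 with sample weights and 771 without COM-4 to COM-6 (182 to 300 on leaving out 1 library), and in COM+Met against NC from 2078 to 1117 with a pseudocount of 5 (2015 to 2136). The share of calls that were higher went from 33.9% to 50.7% in COM against NC and from 29.4% to 45.2% in COM+Met against NC with size factors.

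Signs turned only among uncalled differences. Dusp5 in COM against NC became 0.12 with size factors, 0.14 with quantile normalisation and 0.11 without COM-4 to COM-6. In COM+Met against COM, Socs1 became -0.071 without COM-1 to COM-3 and was -0.12 (without COM-6) to 0.34 (without COM-4) on leaving out 1 library, and without COM-1 to COM-3 Socs3 became -0.018 and Cish 0.23. In COM+Met against NC, Socs2 became 0.059 and 0.16 and Dusp6 0.11 and 0.091 with size factors and quantile normalisation. The Dusp2 difference between COM and NC was -0.038 to 0.032 on leaving out 1 library. Of 615 recomputed values of these genes 569 kept direction and side of the threshold.

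Same-numbered libraries did not deviate together (correlations -0.222 to 0.057, 0 of 6 pairs above 0.1 in each comparison). This cannot exclude a pairing by number, because libraries that stand apart within a group enter these deviations. The main fits used no pairing. With the replicate block, 5, 1 and 3 of the genes and 1920, 202 and 2080 genes in all were called.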
